A study of Mus musculus with 83 samples.

Results

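The library described here is the input DNA of 3T3-L1 cells at day 7 of adipogenesis, labelled as mature adipocytes. Its members are all aligned reads that the deposited read list places on the 19 autosomes or on the mitochondrial chromosome (chrM) in mouse build mm9. They number 4864435 of the 5064617 reads listed (96.0%), of which 4849493 lie on autosomes and 14942 on chrM. The series holds 83 samples, which profile RNA, transcription factors, cofactors, histone marks and open chromatin through brown fat cell differentiation in culture. The input belongs to its 3T3-L1 arm, where a MLL4 ChIP-seq library was made at the same day. That ChIP library was not analysed here, so the input is given on its own, with no control, no replicate and no test. Intervals are exact 95% Poisson or binomial (Clopper-Pearson) intervals and cover counting error only, since PCR copies are not independent molecules.

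3T3-L1 is an established line of immortalized white preadipocytes derived from mouse embryo fibroblasts and widely used as a model of fat cell formation. The sample carries no antibody, and its labels give no genotype. The growth protocol attached to it describes brown preadipocytes immortalized with SV40 large T antigen instead, and the cell type label was followed here. The induction medium it names held insulin, T3, IBMX, dexamethasone and indomethacin, followed by insulin and T3. An input holds no RNA, so the label was not checked against expressed markers.

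Input is sheared chromatin that is sequenced without immunoprecipitation, and it serves as the background against which enriched regions are called. In such a library the number of reads from a region depends on how many copies of it the cells hold, on how readily its chromatin shears and is recovered, and on how much of it can be aligned. Mouse autosomes have the centromere at one end, next to large arrays of satellite repeats that the reference leaves out or holds only in part. Lines of the 3T3 family are known to be aneuploid. Mitochondrial DNA is a small circle present in many copies per cell, and some of it survives in libraries made from nuclei.

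The read list came from 1 lane of a flow cell and 96 of its tiles, with 39574 to 70350 kept reads per tile. Of the kept reads, 99.4% spanned 50 bases on the reference, and the others spanned 45 to 55. The autosomal reads split evenly between strands, with 50.04% on the plus strand (95% interval 49.99% to 50.08%), and single autosomes lay between 49.8% and 50.4%. Reads left out lay on X (191864), on Y (49) and on unplaced or unlocalized sequence (8269).

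Each read carries a mapping score from 4 to 203, whose scale no label or file header states. The score was high for most reads, with a mean of 150 and a median of 182. The top value of 203 alone held 42.9% of the reads. Below it the scores piled up at a few values: 157 held 3.73% of the reads, 112 held 1.35%, 66 held 1.07% and 20 held 0.909%. Plus strand and minus strand reads of the autosomes did not differ in mean score by a whole unit (149.58 and 149.57). Tiles lay between 147 and 151. Among autosomes the mean ran from 146 on autosome 7 to 153 on autosome 16. Mitochondrial reads were lower, with a mean of 137, a median of 160 and 37.7% at the top score, against 42.9% of autosomal reads.

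**Figure D1:**
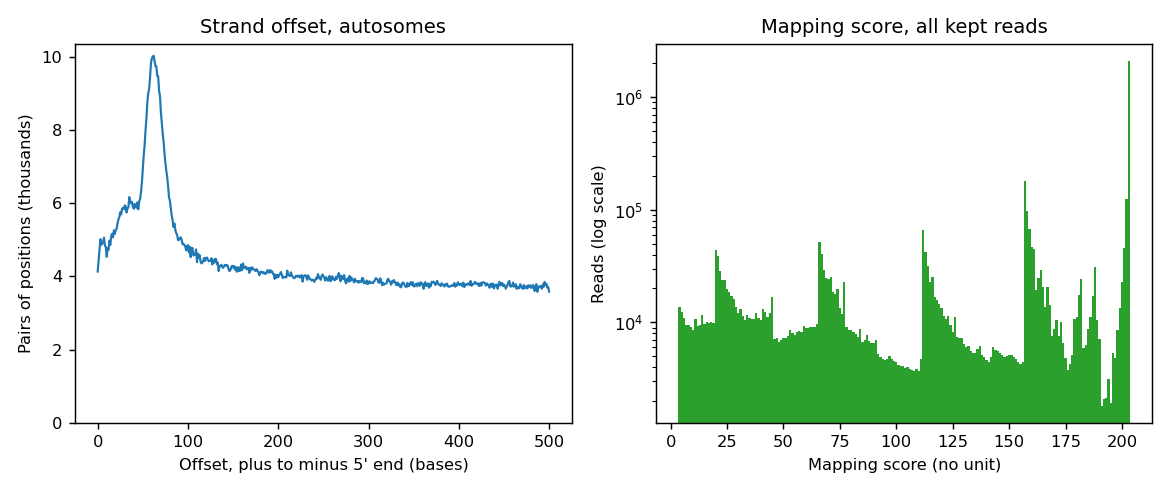
Left, the number of pairs of a plus strand and a minus strand 5' end on the autosomes (in units of 1000, 1 read per start and strand) against the distance between them in bases. The curve peaks at 62 bases and falls to a flat level. Right, the number of kept reads (log scale) at each mapping score. The score of 203 stands far above all others, and smaller peaks stand at 157, 112, 66 and 20.

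Distances between plus strand and minus strand 5' ends are often used to estimate fragment length, though reads that align only in certain places can give a peak near the read length as well. On the autosomes the pairs peaked at an offset of 62 bases, with 10023 pairs against a mean of 3751 at offsets of 400 to 500, which is 2.67 times that level. Midway between that level and the maximum, the peak ran from 50 to 75 bases. At 20 bases there were 5267 pairs, at 100 bases 4851 and at 200 bases 3977. A search set to begin at 70 bases, which was the rule chosen first, returned 70, the edge of its own range, so the curve as a whole is given here. The labels name a gel band of 200 to 400 bp, adaptor and primer sequence included, for libraries of this protocol. With scores at or above the median the maximum lay at 66 bases, and without the 100 kb bins at 3 or more times the median at 62. With all reads counted it lay at 51 bases, at 74.2 times the level of 400 to 500. That count multiplies the reads of both positions, so a few positions with very many reads can set its maximum. The autosomal position with the most reads began at base 98502409 of chromosome 2, with 1037 minus strand reads. The next began at base 98502407, with 995 plus strand reads. For reads spanning 50 bases, the 5' ends of these positions lie 51 bases apart, which is the offset of that maximum. How much of the maximum came from such positions was not tested. Fragment length and an effect of the read length cannot be told apart here, so the peak is given as an offset and not as a fragment length.

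Repeated reads were few on the autosomes. Counting as a repeat each read beyond the first at one chromosome, start and strand, 3.22% of all kept reads (3.20% to 3.24%) and 3.04% of autosomal reads (3.03% to 3.06%) were repeats. The label's protocol names 15 to 18 cycles of PCR. Of 4701929 autosomal positions, 4578443 (97.4%) held 1 read, 116675 (2.48%) held 2, 5425 held 3 to 4, 927 held 5 to 9, and 459 held 10 or more. The number of positions thus fell steeply with each added read, but the last group held 14790 reads. Its reads had a mean score of 41.0, where positions with 1 read had 150 and those with 2 had 152.

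Read names give the place of each cluster on the flow cell. Among the 116675 autosomal positions with 2 reads, both reads came from the same tile in 14.6%, where an even spread over 96 tiles would put 1.04% together. In 13.7% the reads lay within 100 coordinate units of each other, and the median distance of pairs on the same tile was 16.6 units. Repeats of this kind, side by side on the flow cell, were a minority of the pairs. The remainder lay on different tiles or far apart on one.

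**Figure D2:**
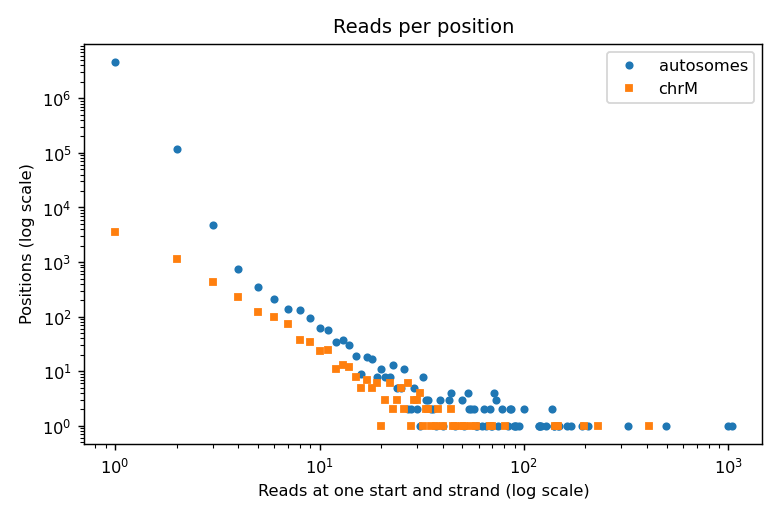
Number of positions (log scale) against the number of reads at one start and strand (log scale), for autosomes and chrM. Autosomal positions fall from 4578443 with 1 read to single positions with up to 1037 reads, and chrM starts far lower with a shallower fall to a position of 408.

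The autosomal positions with many reads lay mostly in 1 place. Of the 459 positions with 10 or more reads, 303 lay at chr2:98500001-98600000 (all coordinates are mm9), where they held 12586 of the 14790 reads. The 3 highest began at base 98502405, 98502407 and 98502409 of chromosome 2, with 497, 995 and 1037 reads. Their mean scores were 17.2, 20.9 and 22.5, near the bottom of the scale. Chromosome 6 had 20 such positions at chr6:103500001-103600000 with 440 reads. Chromosome 9 had 15 at chr9:3000001-3100000 with 269 reads, next to its centromeric end, and 16 at chr9:35100001-35200000 with 256 reads. Autosome 2 had the highest share of repeats, 6.21%, followed by autosome 10 at 4.46% and autosome 9 at 3.35%. The other 16 autosomes lay between 2.41% and 2.94%.

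Mitochondrial DNA made up 0.307% of the reads (0.302% to 0.312%) and 0.125% once each start and strand was counted 1 time (0.121% to 0.128%). Per kb the difference from the autosomes was large. All reads counted, chrM held 919 reads per kb and the autosomes 2.01, a ratio of 457 (450 to 465). With 1 read per start and strand these were 361 and 1.95 per kb, a ratio of 185 (181 to 190). The 2 ratios differ because repeats were 60.7% of mitochondrial reads (59.9% to 61.5%). The kept positions filled 18.0% of all starts on both strands of the covered span, and 24.4% over the windows of 500 bases with 10 or more reads. A start can count only 1 time on each strand however many fragments began there. How many repeats were PCR copies and how many separate molecules cannot be told apart here. The labels describe lysates of sonicated nuclei, so these ratios are what the library retained and not the mitochondrial content of a cell.

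**Figure D3:**
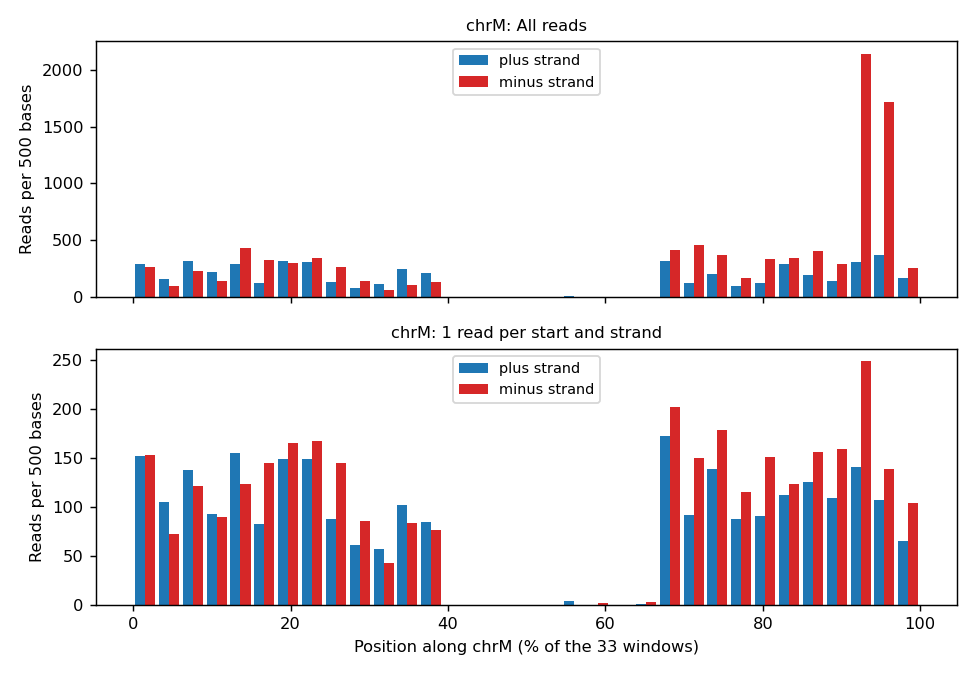
Reads per window of 500 bases along chrM (position as % of the 33 windows), plus strand in blue and minus strand in red, for all reads (top) and 1 read per start and strand (bottom). A stretch in the middle is nearly empty, and 2 windows near the end hold 2141 and 1716 minus strand reads.

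The mitochondrial reads were spread unevenly over the circle. Of 33 windows of 500 bases, 24 held between 177 and 2448 reads with a median of 500.5. The other 9, in 1 run from base 6501 to base 11000, held 14 reads in all. The longest stretch with no read start lay between starts at base 6393 and base 9412. With 1 read per start and strand the 24 filled windows held 100 to 390 reads, a narrower range. Over the filled windows alone the density ratio to the autosomes was 251 in place of 185.

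A long nuclear copy of part of the mitochondrial genome is known on mouse chromosome 1, and reads that match both copies have no single place. The treatment of reads with several matches is stated in no label or header. On chromosome 1 the stretch chr1:24618001-24622000, looked at after the mitochondrial gap was seen, had 0 reads in 3 of its 4 windows of 1 kb. In the other, chr1:24619001-24620000, it held 92 reads at 49 positions with a mean score of 62.4. The 8 windows of 1 kb before the stretch held 0 to 6 reads each, 1 of them none, and the 8 after it 1 to 5. The part of the nuclear copy in the mitochondrial gap was not tested, since no mm9 sequence was used here.

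The strands of chrM were unequal too. The minus strand held 65.2% of mitochondrial reads (64.5% to 66.0%), and 9746 reads against 5196 on the plus strand. Much of this came from the 2 windows with the most reads, the last 2 full ones, in the part of the reference that holds the noncoding control region with the displacement loop. These 2 windows held 4539 reads, 30.4% of all on chrM, of which 3857 were on the minus strand and 682 on the plus strand. The single highest position, with 408 minus strand reads, spanned bases 15567 to 15616. A tight group followed at starts 15430, 15431 and 15432 with 230, 197 and 147 reads, and start 15470 had 142. These positions had mean scores of 177 to 193, above the chrM mean of 137. Outside the 2 windows the minus strand share was 56.6%, and 16 of the 24 filled windows, those 2 included, had more minus than plus strand reads. Repeats made up 86.0% of reads in the 2 windows and 49.7% elsewhere on chrM. With 1 read per start and strand the plus strand share of chrM rose from 34.8% to 45.4% (44.1% to 46.7%).

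Read density on the autosomes was then measured with 1 read per start and strand, over the span from the first to the last read start. The first starts lay between base 2999983 and base 3083450, behind the unsequenced centromeric ends, and the 19 spans add up to 2415 Mb. The mean density was 1.95 reads per kb. A relative density of 1 below is this mean.

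**Figure D4:**
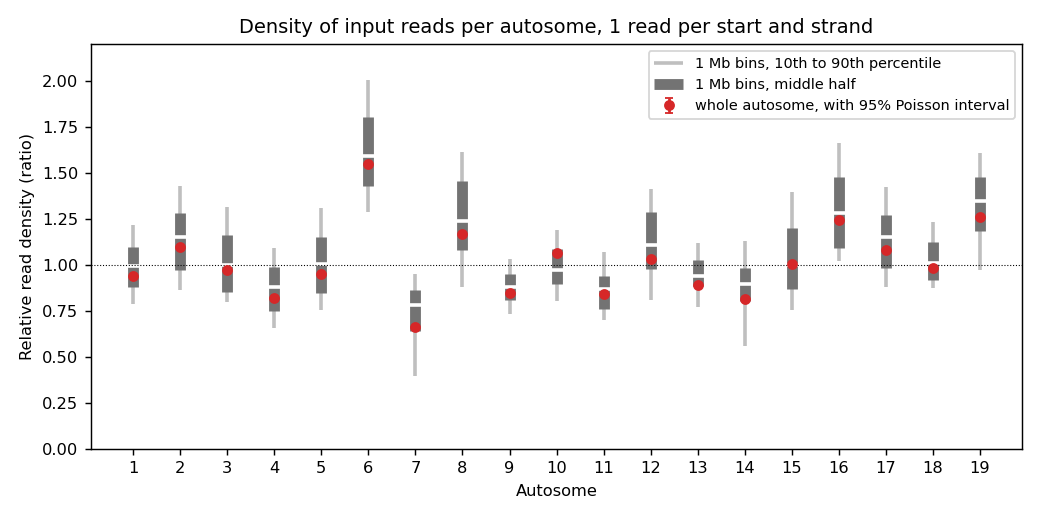
Relative read density of each autosome (red, 1 being the density over all autosomes, with 95% Poisson intervals that are mostly smaller than the points). Behind each is the spread of its 1 Mb bins over the median bin (dark bar, middle 50%; light line, 10th to 90th percentile; white mark, median). Autosome 6 is the highest and autosome 7 the lowest, and the bins of most autosomes overlap.

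Autosome 6 was the densest at 3.01 reads per kb, a relative density of 1.55 (1.54 to 1.55). Autosome 7 was the least dense at 1.29 reads per kb, 0.663 of the mean (0.660 to 0.666). Their ratio was 2.33 (2.32 to 2.34). The counting error of each value was under 1%, so the ranking below is far finer than the spread of bins inside each autosome.

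Next to autosome 6 came 19 at a relative density of 1.26, 16 at 1.24 and 8 at 1.17. Autosomes 2 (1.09), 17 (1.08), 10 (1.07), 12 (1.03) and 15 (1.01) were also above the mean. Slightly below it were 18 (0.982), 3 (0.970), 5 (0.95) and 1 (0.939), and further down 13 (0.890). Autosomes 9 (0.846) and 11 (0.840) had overlapping intervals, as had 4 (0.819) and 14 (0.814). The other 16 of the 18 neighbouring pairs in this order were apart by more than counting error. The order depended on the measure, though: with the median of 1 Mb bins 10 ranks changed. Autosomes 5, 10, 15 and 18 then crossed 1, which is the median bin in that measure. With no second library, how far the order would vary between cultures was not measured.

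Stretches without a read count in the length of an autosome. On autosome 7, 6 bins of 1 Mb inside its span held no read at all, and only 2 more such bins were found, 1 each on autosomes 1 and 8. As a median of 1 Mb bins, which gives empty stretches little weight, autosome 7 stood at 0.780 of the median bin and autosome 6 at 1.59, and the ratio was 2.04. Autosome 10 was the other value that rested on a small part of its length. It had a relative density of 1.07 as a whole, 0.973 as a median of bins and 0.938 without its 8 densest bins of 100 kb. Autosomes 6, 19 and 16 were the 3 densest and 7 the least dense in each of these measures.

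Densities also varied inside autosomes. The 2418 bins of 1 Mb that held a read had a median of 1854 reads, for which counting error is an SD of 2.32%. The middle 50% of the bins lay between 0.863 and 1.2 times the median bin, and the middle 80% between 0.734 and 1.44. The variance of bins was 35.1 times their mean on autosome 18, the lowest value, and 1649 times on autosome 10, the highest, where Poisson counts would give 1. On autosome 10 the highest bin stood at 9.37 times the median bin, while the middle 50% of its bins lay between 0.896 and 1.09. Differences between autosomes made up 25.3% of the variance of log2 bin values, and the rest lay within autosomes. For this share, bins under 0.1 of the median were set to 0.1, and bins cut short by the end of a span were kept. In all, 515 bins (21.3%) were 25% or more above the median and are called high here, and 269 (11.1%) were 25% or more below it and are called low. The last bin of an autosome is cut short by the end of the span and was counted as it stood. Counted per covered length, leaving out 2 bins on autosome 9 with under 0.1 Mb covered, 516 bins were high and 256 low.

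Those bins were not shared out evenly. Autosome 6 had 135 high bins of 147 and 0 low ones, and its lowest bin per covered length was at 0.988. Autosome 19 followed with 40 of 59 high bins, 16 with 51 of 96 and 8 with 60 of 128. Autosomes 7 and 14 had 0 high bins, and 64 of 144 and 22 of 123 low ones. Autosome 4 had 39 low bins of 153 and autosome 11 had 27 of 119, or 26 per covered length. Autosome 18 had 8 high and 2 low bins of 88, and 1 low bin per covered length.

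**Figure D5:**
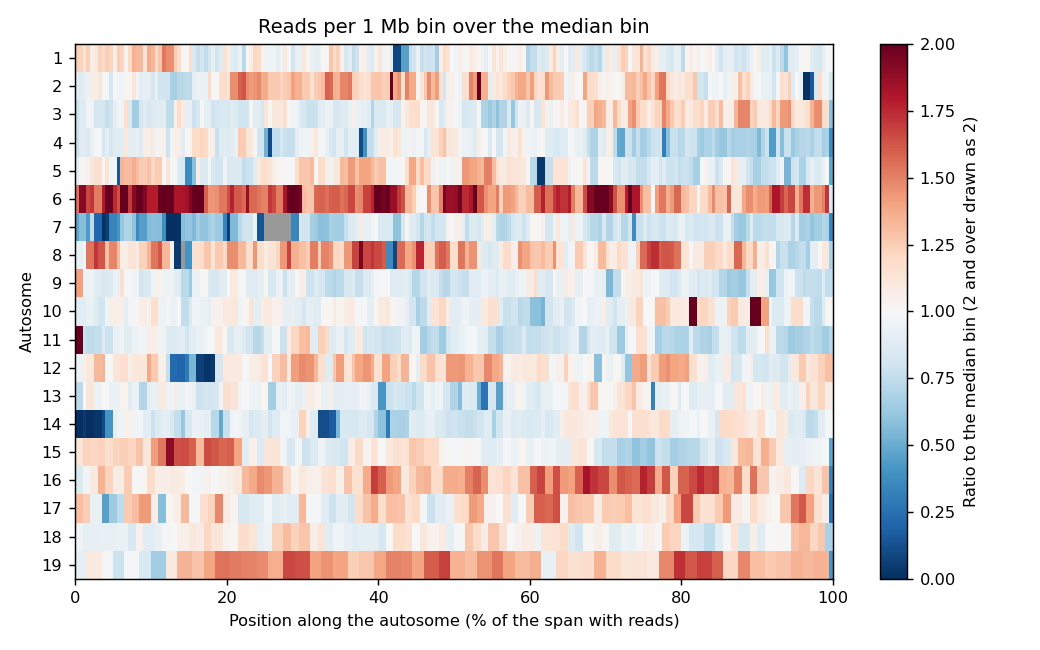
Reads per 1 Mb bin over the median bin, along each autosome from its centromeric end (position as % of the span with reads). Red bins are above the median bin, blue below, and grey stretches held no read; autosome 6 is red nearly throughout, and 7 is blue, most of all in its first part.

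High and low bins came in runs. Neighbouring bins resembled each other, with a Pearson correlation of 0.67 between bins 1 Mb apart on the same autosome, after division by the autosome's median (2341 pairs). Only bins from 0.25 to 3 times that median were used, so the emptiest and densest bins were left out. At 2 Mb the correlation was 0.48, at 5 Mb 0.29, at 10 Mb 0.18 and at 20 Mb 0.11 (1978 pairs). At 50 Mb it was -0.079 (1421 pairs). All pairs share the library and bins recur in several, so these values describe the profile only. Counting stretches of 5 or more adjacent bins all high or all low, there were 30 high runs with 325 bins, on 8 autosomes, and 14 low runs with 120 bins, on 9 autosomes.

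Of the high runs, 6 lay on autosome 6 and covered 132 bins. The longest took the first 65 bins, chr6:3000001-68000000, with a median of 1.70 and a range of 1.27 to 2.39. Outside autosome 6 the longest was chr16:59000001-78000000, 19 bins with a median of 1.60. Autosome 15 had 1 high run, chr15:13000001-25000000, where 12 bins had a median of 1.60, while the median of the whole autosome was 0.999. Autosome 8 had 5 short runs, with the highest, chr8:49000001-56000000, at a median of 1.67. Reads in the 30 high runs had mean scores from 144 to 157, around the autosomal mean of 150.

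Low runs ranged more widely in their scores, with means from 82.2 to 150. The longest took the first 33 bins with reads on autosome 7, chr7:3000001-36000000, with a median of 0.56 and bins down to 0.0070. Its reads had a mean score of 128. The lowest in score was chr12:18000001-25000000, with a median of 0.21 and a mean score of 82.2. The emptiest was chr14:3000001-9000000, with a median of 0.035 and a mean score of 109. Others held reads of ordinary score: chr4:128000001-142000000 had a median of 0.68 over 14 bins and a mean score of 145, and chr11:113000001-122000000 a median of 0.71 and 149, though the last bin of that run is a cut one that stood at 0.854 per covered length. Over all autosomes, reads in low bins had a mean score of 138, those in the 1634 bins between the limits had 150, and those in the 493 high bins under 2 times the median had 152. In the 22 bins at 2 times the median or more it was 138, with 17.2% repeats. Without reads of chr2:98500001-98600000, the bin of repeated reads named above, those 22 bins had a mean score of 151 and 7.99% repeats. Up to 2 times the median, the mean score of these 3 classes thus rose with density, though single high and low runs overlapped in mean score. The link of score and density was not tested. Per covered length, 31 bins with reads were at 0.25 of the median or less (36 as counted), 8 of them on autosome 14, 8 on 7 and 5 on 12, beside the 6 empty bins of autosome 7.

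Some autosomes differed between their 2 ends. Split at the middle of the span, the first and second part had bin medians of 0.888 and 1.13 on autosome 3, 1.14 and 1.45 on 16, and 0.649 and 0.822 on 7, the part at the centromere named first. The reverse was seen on autosome 15, at 1.15 and 0.921. In these 4 the parts were at least 1.2 times apart. On autosome 4 they were at 0.931 and 0.776, and on 17 at 1.01 and 1.2. Autosome 18 had no such difference, with 1.01 in both parts.

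At 100 kb, 16 of 23881 bins (0.067%) held 3 times the median of 187 reads or more. The bin just inside this limit stood at 3.16 times and the one just outside, on autosome 6, at 2.89. The 16 bins lay on 7 autosomes and held 1.5% of autosomal reads but 15.8% of autosomal repeats. Outside them the share of repeats was 2.60%.

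Of the dense bins, 8 of 16 lay on chromosome 10. They include the 4 densest, from chr10:116800001-116900000 to chr10:117100001-117200000, at 29.4, 37.3, 39.4 and 38.5 times the median, in a block that spans 420 kb in bins of 10 kb (chr10:116810001-117230000). Apart from it stood chr10:106600001-106700000 at 24.1 times, with its reads in a block of 50 kb at 46.3 times the median of 10 kb bins. Chromosome 2 held a block of 170 kb, chr2:77700001-77870000, at 16.2 times. Chromosome 11 held one of 80 kb at its centromeric end, chr11:3020001-3100000, at 24.7 times. In these blocks reads were spread over many positions: the 2 densest bins held 2.12% and 1.85% of their reads in the fullest kb, and the plus strand share was 50.5% and 49.0%.

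The dense bins were of at least 2 kinds by score and repeats. Those on chromosomes 10, 11 and 15 and the 2 in the block named on chromosome 2, 12 in all, had mean scores of 122 to 161. Their repeats were between 3.44% and 20.2%, the highest at chr10:106600001-106700000. The densest bin held 8645 reads at 7373 positions, and PCR copies and separate fragments with one start cannot be told apart in it. The bin chr2:98500001-98600000 was of another kind. It held 16290 reads at 1810 positions, so that 88.9% were repeats, with a mean score of 35.1 and 0.706% of reads at the top score. Likewise chr9:3000001-3100000, at 7.08 times the median, had 46.0% repeats and a mean score of 44.5. In between, chr12:116800001-116900000 had a mean score of 88.9 and 4.89% repeats, and chr17:39900001-40000000 had 108 and 4.51%, with 16.8% of its positions in 1 kb. Reads outside the dense bins had a mean score of 150.

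With bins of 10 kb, 412 of 236076 (0.175%) reached 3 times the median of 19 reads, and 226 of them lay on autosome 6, whose general level is high. Adjacent ones formed 38 blocks of 2 or more bins, and 4 of 5 or more, which are the 4 blocks named above on chromosomes 10, 2 and 11. The counts in bins of this size are small, and a single bin at the limit says little.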

How the data were processed

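One library was used, the 3T3-L1 day 7 input, grouped by its title. The deposited file lists 1 aligned read per line with chromosome, start, end, read name, mapping score and strand. The score is as the authors deposited it, and its scale is not given. Per the submitters' processing notes the build is mm9 and the tools named include Cufflinks 1.0.3, TopHat2 2.0.10, CASAVA 1.8.2 and SICER. The aligner and read filters of this file are not given in the sources used here. No mm9 genome or annotation was used, so no gene is named and no sequence printed.

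Reads on chr1 to chr19 and chrM were kept and counted once per chromosome, start and strand, in Python 3.11.15 with numpy 2.4.6, pandas 2.3.3 and scipy 1.17.1 (figures: matplotlib 3.10.9). Bins without a read were left out of medians. The limits of 3 times the median and of 25% above or below it are rules of size, not tests. Regions named are every autosome, runs of 5 or more 1 Mb bins and the densest 100 kb bins; other regions were chosen after their values were seen. The counting of repeats, densities, dense bins and strand offsets was tested on simulated data. The autosomes, rules and limits were chosen with earlier results of these data known. The RNA tables of the series were not used.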

Additional observations from a re-analysis of the deposited data

How the results depend on the processing

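The share of repeats was 2.47% for reads with a score at or above the median, 2.78% without the 100 kb bins at 3 or more times the median and 3.04% on autosomes alone; the other keys moved it by less than its interval. The mitochondrial share was 0.125% with 1 read per start and strand, 0.275% at or above the median score, 0.214% on the plus strand and 0.401% on the minus strand. The mitochondrial density ratio was 457 with all reads, 158 at or above the median score, 168 and 202 on the plus and minus strand, 176 without the 2 windows with the most reads and 251 over windows with 10 or more reads. The ratio of autosome 6 to 7 was 2.16 with the length of 100 kb bins that hold a read, 2.04 as a median of bins and 2.43 at or above the median score. All reads, each strand and each set of tiles kept it within its interval. Leaving out dense bins could not change this ratio, since neither of the 2 autosomes has a dense bin. The 16 dense bins, 0.067% of 23881, became 249 of the same bins at 2 times the median and 12 at 5 times. With bins of 50 kb there were 35, but such bins are more numerous, so this count is not by itself a larger share. The 784 bins 25% or more from the median became 1599 with bins of 500 kb and 404 with bins of 2 Mb, which is 33.2% and 33.1% of bins against 32.4%. Reads with a score at or above the median gave 962 such bins, with 543 high and 419 low against 515 and 269, so the low count rose and the high count changed little. The offset with 1 read per start and strand was 70 searched from 70 and 62 searched from 0. With all reads, where each pair counts by the product of its reads, these were 489 and 51. Of 171 autosome densities under 9 settings, 88 stayed within their interval and 83 did not. Autosomes 6 and 7 stayed highest and lowest in all 9, and 19 and 16 changed places at or above the median score. With the median of 1 Mb bins 10 ranks changed, and without dense bins 9, both by up to 6 places. At or above the median score 7 changed, by up to 2 places. All reads and the length of bins with a read changed 2 ranks each, and the order held for each strand and each set of tiles. Autosome 10 went from 1.07 to 0.938 without dense bins. The settings by tile, on autosomes alone, by part of chrM, per covered length and with offsets from 0 were added after seeing the data. Depth limits 100 kb bins, whose counting SD is 7.31% at the median. No paired analysis was possible because there is 1 library.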

Other observations

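Outside the autosomes, X had a relative density of 0.586 (95% Poisson interval 0.583 to 0.589), measured as for the autosomes and below each of them, with a median 1 Mb bin at 0.624 of the autosomal median and a mean score of 147. Y had 49 reads at 45 positions with a mean score of 40.8, a relative density of 0.0095.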
